A study of Mus musculus with 6 samples.

Results

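The 8 genes described here carry lipid into and out of macrophages: Cd36, Lpl and Trem2 on the side of uptake and sensing, Plin2 in storage, Nr1h3 as a regulator, and Abca1, Abcg1 and Apoe in efflux. They were chosen by gene name, 8 of the 54532 genes in the deposited table, and each name matched 1 gene. All 8 passed the filter on low counts that left 13156 genes for testing. Polyadenylated RNA was sequenced from RAW264.7 cells, a macrophage-like line established from a virus-induced mouse tumour, after 3 days of growth on alloys that all carried a calcium phosphate (CaP) coating. The alloys were CaP Zn0.8Mn0.1Li, which adds manganese and lithium to zinc, CaP Zn0.8Mn, which adds manganese, and CaP Zn, with 2 libraries each. Cells grown without metal or without the coating were not analysed here, so every comparison is between coated zinc-based surfaces. RAW264.7 is a transformed line, and separate cultures behind the 2 libraries of an alloy are not stated in the labels. The p-values therefore reflect the spread among these libraries alone, and that spread may be technical.

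Macrophages take up modified lipoproteins through scavenger receptors such as CD36 and release fatty acids from triglyceride-rich particles with lipoprotein lipase. Surplus fatty acid and cholesterol are esterified and kept in droplets coated by perilipins. Free cholesterol leaves the cell through the transporters ABCA1 and ABCG1, which load apolipoproteins and high-density lipoprotein. Oxysterols formed from cholesterol bind the liver X receptors (LXR), nuclear receptors that pair with retinoid X receptors on DNA and raise transcription of Abca1, Abcg1 and, in many macrophages, Apoe. TREM2 is a surface receptor for lipids and lipoproteins that signals through the adaptor TYROBP.

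Replicate 1 of CaP Zn0.8Mn differed broadly from the rest. Its log2 expression correlated with theirs at Pearson's r of 0.909 to 0.927 across genes, against 0.991 to 0.995 among the others, and 7.88% of its reads came from mitochondrial genes, against 1.82% to 2.15% in the others. Of all tested genes, 83.9% lay outside the range of the other 5 libraries in it. Its part in the CaP Zn0.8Mn values cannot be told apart from the alloy with the 1 other library of that group, so the members' tests are given with and without it. Without it, 1 library stands for CaP Zn0.8Mn and is assumed to vary like the other groups. Library totals ran from 14944070 to 17709290 counts, and a floor of 3 counts amounted to 0.169 to 0.201 CPM, counts scaled to the size of each library. Without molecular identifiers, floors and Poisson intervals describe counting error alone. All 9 macrophage markers examined were tested, with a summed level of 15326 to 15918 CPM on CaP Zn0.8Mn0.1Li, 9589 and 16735 CPM on CaP Zn0.8Mn and 11093 to 14308 CPM on CaP Zn. Most of each sum was Lyz2, at 5851 CPM in CaP Zn0.8Mn replicate 1, against 9173 to 14534 CPM in the others. In that replicate 5 of the 9 markers lay above all other libraries and 4 below, against 42% and 41.9% of tested genes. The largest rise was that of Csf1r, at 4.58-fold the mean of the other 5. The adipocyte genes Adipoq and Lep and the fibroblast genes Col1a2, Pdgfra and Dcn had 0 counts in all 6 libraries. The summed level of 6 adipocyte markers was 16.9 CPM in CaP Zn0.8Mn replicate 1, against 12.7 to 15.4 CPM in the others, nearly all of it Lipe. For 8 osteoblast and fibroblast markers it was 7.52 CPM, against 13.6 to 17.4 CPM, nearly all of it Runx2. For 7 osteoclast markers it was 181 CPM, against 204 to 263 CPM. The osteoclast markers were divided: of 6 tested, 3 lay above and 3 below all other libraries in that replicate. Dcstamp was at 3.98-fold and Acp5 at 0.139-fold the mean of the other 5. The part of these cell types in the results was not tested. In bulk RNA, fewer cells of a type and less RNA per cell cannot be told apart.

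Lpl was the most abundant of the 8 transcripts per unit length and Nr1h3 the least. In FPKM, counts scaled to gene length and library size, the means over the 5 libraries other than CaP Zn0.8Mn replicate 1 were 122 ± 17.3 for Lpl, 59.4 ± 7.73 for Cd36 and 32.6 ± 3.16 for Trem2 (SD, n = 5). Plin2 averaged 24.95 ± 1.41 FPKM, Abcg1 16.1 ± 1.54, Apoe 3.55 ± 0.246, Abca1 1.13 ± 0.171 and Nr1h3 0.472 ± 0.114 over the same libraries. No neighbours in this order overlapped, so the order was identical in those 5 libraries. The uptake and storage genes stood above the transporters and Nr1h3. In CaP Zn0.8Mn replicate 1, Abcg1 at 44.2 FPKM passed Plin2 at 31.9 FPKM, and Apoe at 1.60 FPKM came last, below Abca1 at 10.1 FPKM and Nr1h3 at 2.07 FPKM. The order depends in part on the deposited lengths. Trem2 is listed with 4946 bases, against 1056 bases for its transcript with the longest coding region in GENCODE M21, and over that transcript its mean would be 153 FPKM, above the 62.8 FPKM of Cd36. Lpl stayed highest with transcript lengths, at 311 FPKM.

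**Figure D1:**
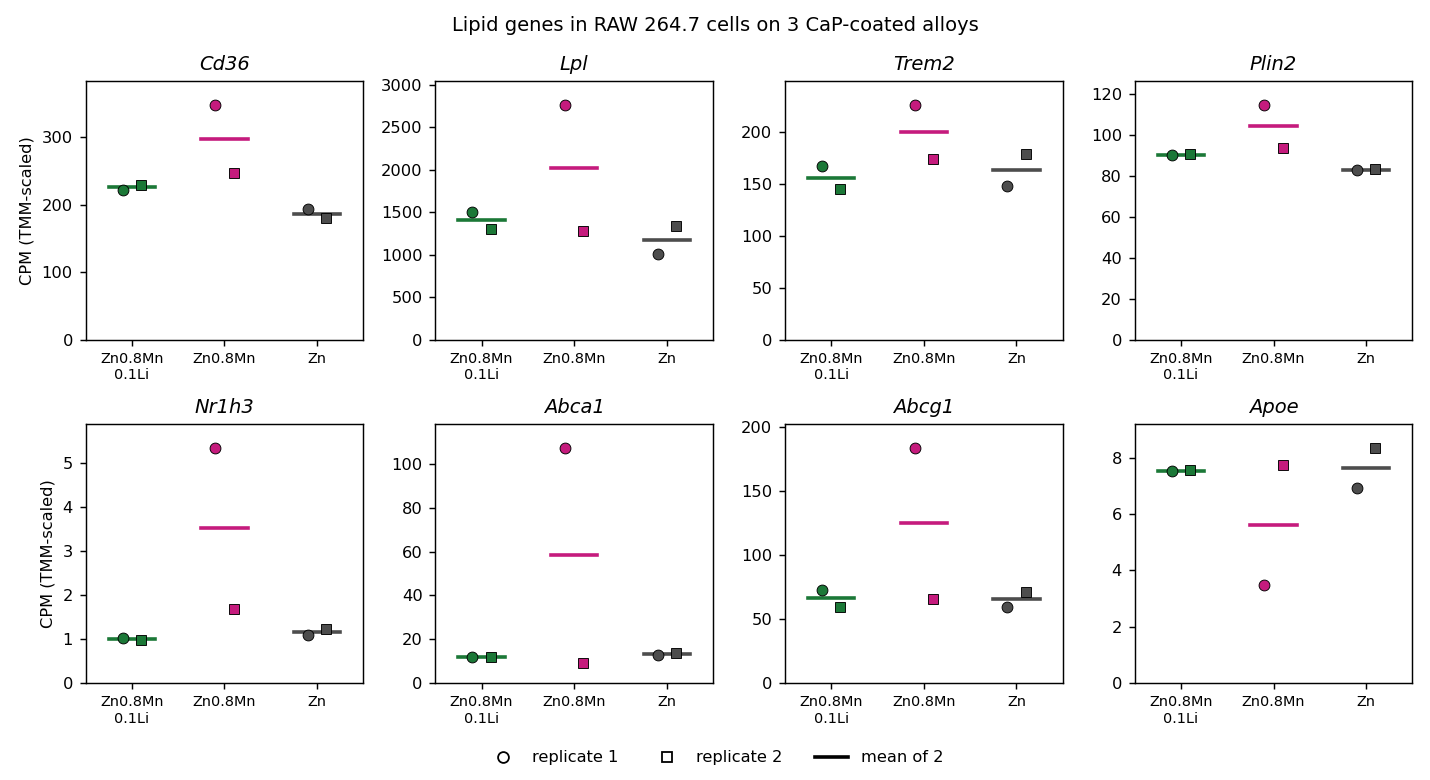
Level of each of the 8 genes in each of the 6 libraries, in TMM-scaled CPM on a linear axis. The alloys run from left to right as CaP Zn0.8Mn0.1Li, CaP Zn0.8Mn and CaP Zn, with 1 point per library. In 7 of 8 panels the highest point is CaP Zn0.8Mn replicate 1, and in the Apoe panel it is the lowest, at 3.50 CPM.

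The library that stood apart held more RNA of 7 of the 8 genes than any other library and less Apoe. Over all tested genes, 42% lay above the other 5 libraries in it and 41.9% below. Abca1 led at 107 CPM, against 11.8 ± 1.80 CPM in the other 5 libraries (SD, n = 5), a 9.09-fold difference that 0.692% of tested genes exceeded. Nr1h3 was 4.47-fold, Abcg1 2.80-fold and Lpl 2.15-fold above the mean of the other 5. The 4 genes past 2-fold thus hold both cholesterol transporters, Nr1h3 and Lpl, and 15.4% of tested genes were past 2-fold upward. Nr1h3 is not the only LXR gene. Nr1h2, which encodes LXR beta, was at 54.3 CPM in CaP Zn0.8Mn replicate 1, against 46.7 to 53.3 CPM in the others. That is 1.11-fold their mean. Cd36 (1.62-fold), Trem2 (1.39-fold) and Plin2 (1.30-fold) lay closer to the other libraries. Apoe, whose product accepts the exported cholesterol, was at 3.50 CPM against 7.63 ± 0.516 CPM, which is 2.18-fold lower. It was the 1 member past 2-fold downward, as were 18.2% of tested genes. The median log2 difference of the 8 genes was 0.90, against -0.0055 over all tested genes. With 1 library on one side, these differences have no replicate check and no test.

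**Figure D2:**
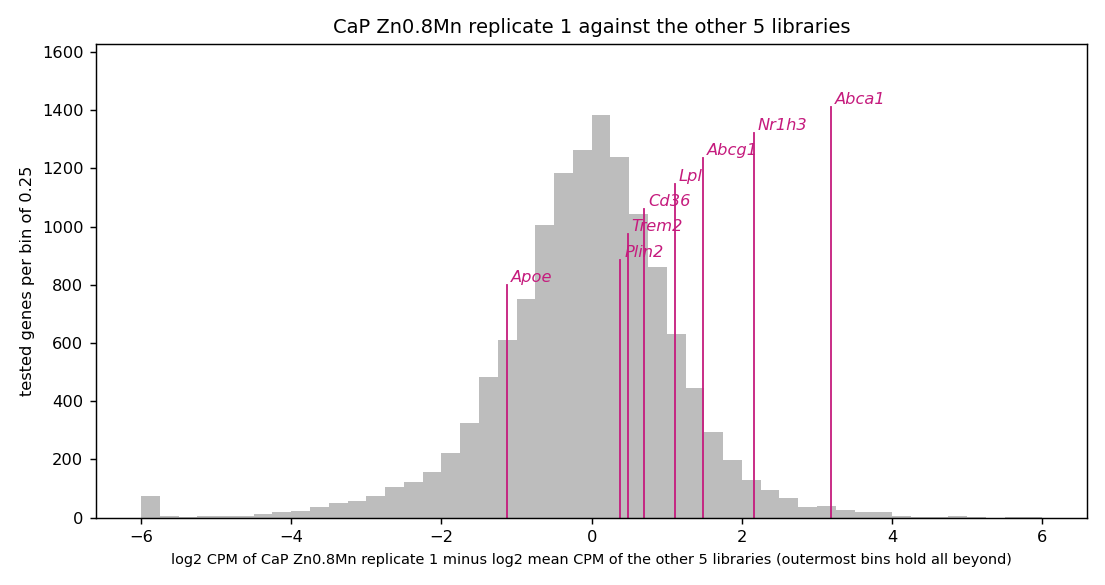
Log2 difference of CaP Zn0.8Mn replicate 1 from the mean of the 5 other libraries, with the distribution over the 13156 tested genes and the 8 genes marked, values off the scale being placed in the outermost bin. Abca1 lies at 3.18 and Nr1h3 at 2.16 on this scale, in the right tail. Apoe lies at -1.13, with 84.4% of tested genes above it.

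Gene length moved with the same difference. Among tested genes with a deposited length above 8 kb, 25.8% were over 2-fold higher in CaP Zn0.8Mn replicate 1 and 3.87% over 2-fold lower, with a median log2 difference of 0.52. Among those of at most 1 kb, 46.6% lay over 2-fold below the mean of the other libraries and 8.36% over 2-fold above it, with a median of -0.86. Abca1 with 10363 bases and Lpl with 10478 bases belong to the longest class, while Apoe with 2138, Nr1h3 with 2515, Plin2 with 3512 and Cd36 with 3590 bases belong to the class of 2 to 4 kb, whose median was -0.18. Abcg1 and Trem2 belong to the class of 4 to 8 kb, with a median of 0.16. Beside these medians, the members of the longest class had log2 differences of 3.18 (Abca1) and 1.11 (Lpl), and those of the class of 4 to 8 kb had 1.49 (Abcg1) and 0.48 (Trem2). In the class of 2 to 4 kb they were 2.16 for Nr1h3, 0.70 for Cd36, 0.38 for Plin2 and -1.13 for Apoe, and 19.1% of the genes of that class were over 2-fold lower and 12.9% over 2-fold higher. These classes rest on the deposited lengths. The transcript with the longest coding region has 4115 bases for Lpl, 1056 for Trem2, 1888 for Plin2, 1955 for Nr1h3 and 1408 for Apoe. By those lengths each of them would fall in a shorter class, while Abca1, Abcg1 and Cd36 would keep theirs. Across 13083 genes, log2 of the deposited length and log2 difference had a Pearson's r of 0.340. Genes are not independent replicates, and all points share the same 6 libraries. The part of length or of mitochondrial reads in the members' values was not tested.

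**Figure D3:**
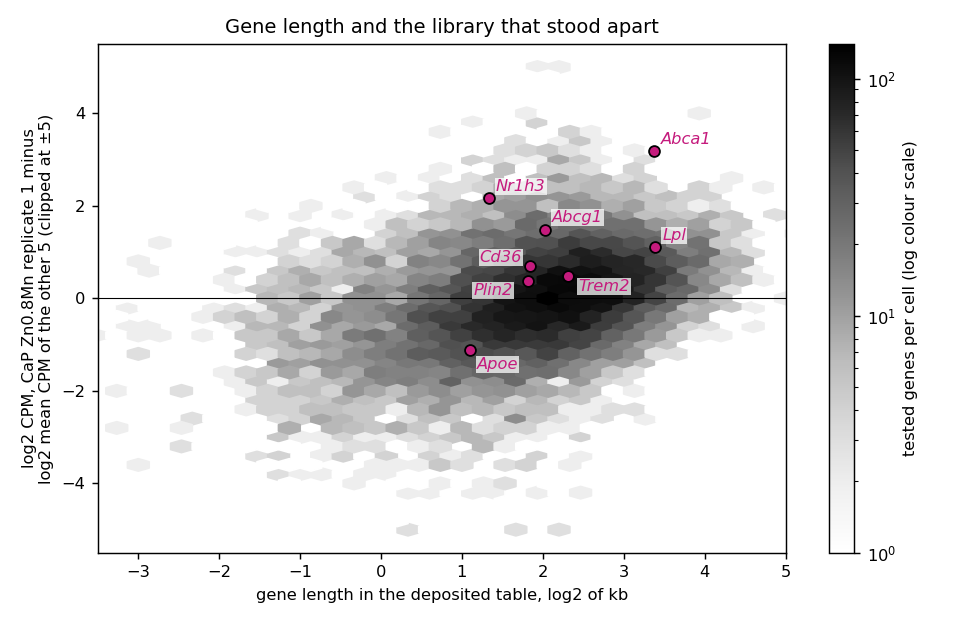
Log2 difference of CaP Zn0.8Mn replicate 1 from the mean of the 5 other libraries against log2 of the deposited gene length in kb. Tested genes are shown with the 8 genes named, and differences beyond the scale are placed at its edge. The median is -0.86 for genes of at most 1 kb and 0.52 for genes above 8 kb.

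Promoters are shown for 3 genes because their levels differ most clearly in kind: Abca1 and Apoe lay at opposite ends in CaP Zn0.8Mn replicate 1, and Cd36 came closest to a difference between alloys. The 250 bases before the RefSeq start (GRCm38.p6, all on the minus strand) are given 5′ to 3′, from chr4:53159896-53160145 for Abca1, chr7:19699189-19699438 for Apoe and chr5:17835897-17836146 for Cd36. Capitals mark a match to the LXR-type pattern in Abca1, which is GGTNA, any 5 bases and GGTCA, and to the nuclear receptor hexamer AGGTCA in Cd36, each read on the opposite strand.
Abca1: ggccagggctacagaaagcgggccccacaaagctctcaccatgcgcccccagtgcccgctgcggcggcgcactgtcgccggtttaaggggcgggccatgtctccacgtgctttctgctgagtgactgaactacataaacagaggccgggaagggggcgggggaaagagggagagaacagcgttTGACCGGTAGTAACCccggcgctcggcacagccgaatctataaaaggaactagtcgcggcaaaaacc
Apoe: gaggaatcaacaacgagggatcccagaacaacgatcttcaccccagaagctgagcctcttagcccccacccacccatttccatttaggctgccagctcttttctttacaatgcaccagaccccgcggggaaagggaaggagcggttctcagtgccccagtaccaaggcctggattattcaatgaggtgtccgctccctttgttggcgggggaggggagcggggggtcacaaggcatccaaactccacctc
Cd36: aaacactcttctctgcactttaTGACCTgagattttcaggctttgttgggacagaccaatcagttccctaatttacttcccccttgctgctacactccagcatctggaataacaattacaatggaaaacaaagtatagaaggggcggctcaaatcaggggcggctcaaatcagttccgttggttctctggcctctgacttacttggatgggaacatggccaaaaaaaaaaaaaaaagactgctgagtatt
The Abca1 match spans bases -67 to -53 from the start, and this pattern, a loose form of the repeat that LXR binds, was chosen knowing the element described in that promoter. Searched on both strands, it occurred in 68 of 32851 RefSeq windows of 250 bases before to 50 after a start (0.207%) and in no other window of the members. Of the 8 genes, 6 had such a window. The strict form of the repeat, AGGTCA, any 4 bases and AGGTCA, occurred in 0.0152% of windows. It was in no window of the members, that of Abca1 included. The hexamer AGGTCA occurred in 16.3% of windows, among them those of Cd36, Plin2 and Trem2. The E-box CACGTG occurred in 7.15%, among them Abca1 from -147 to -142 and Plin2 from -4 to 1. The repeat of AGGTCA after 1 base, read by receptors of the PPAR type, occurred in 0.0396% and in no window of the members. The Cd36 start used by RefSeq lies 52905 bases inside the gene as deposited, so other starts of that gene are not covered. A match is a description of letters and not a site in use.

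Cd36, the class B scavenger receptor for oxidised lipoproteins and long-chain fatty acids, came closest to a difference between alloys. It stood at 222 and 229.7 CPM on CaP Zn0.8Mn0.1Li, at 349 and 248 CPM on CaP Zn0.8Mn and at 194 and 179.7 CPM on CaP Zn. No 2 groups overlapped, and CaP Zn was the lowest. The difference of CaP Zn0.8Mn0.1Li from CaP Zn was 0.28 on the log2 scale (SE 0.22) with all 6 libraries and 0.28 (SE 0.081) with 5, where the unadjusted p of edgeR's quasi-likelihood test was 0.00384 and the adjusted p 0.632. Over the alternatives tried, that adjusted p ran from 0.614 to 1.00. Against CaP Zn, CaP Zn0.8Mn differed by 0.68 (SE 0.22) with 6 libraries and by 0.41 (SE 0.098) without replicate 1. The unadjusted p was 0.0247 and 8.04e-04 in those fits, and edgeR's adjusted p 0.773 and 0.817. The adjusted p of that difference ran from 1.78e-06, without CaP Zn0.8Mn replicate 2, to 0.992 over the alternatives. Cd36 did not pass the test across all genes in either fit. For every gene, CaP Zn0.8Mn replicate 1 belongs to neither group in CaP Zn0.8Mn0.1Li versus CaP Zn. Leaving it out thus changes that estimate only through scaling and the re-estimated spread, and acts mainly on the SE. The gene lies on chromosome 5 from 17781690 to 17888801, minus strand (GRCm38).

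Lpl encodes lipoprotein lipase, which macrophages secrete. It gave 1506 and 1305 CPM on CaP Zn0.8Mn0.1Li, 2768 and 1273 CPM on CaP Zn0.8Mn and 1007 and 1339 CPM on CaP Zn. The ranges of all 3 groups overlapped, with the library that stood apart highest and the other CaP Zn0.8Mn library inside the CaP Zn range. Its log2 difference from CaP Zn was 0.26 (SE 0.14) on CaP Zn0.8Mn0.1Li and 0.12 (SE 0.18) on CaP Zn0.8Mn in the 5-library fit, against 0.26 (SE 0.42) and 0.78 (SE 0.42) with 6 libraries. Lpl lies on chromosome 8 from 68880491 to 68907448, plus strand (GRCm38).

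Trem2, the lipid-sensing receptor, stood at 167 and 145 CPM on CaP Zn0.8Mn0.1Li, at 226 and 174 CPM on CaP Zn0.8Mn and at 148 and 178 CPM on CaP Zn. Leaving out CaP Zn0.8Mn replicate 1, the 5 values spread from 145 to 178 CPM and CaP Zn overlapped with both other alloys, while both CaP Zn0.8Mn0.1Li libraries lay below CaP Zn0.8Mn. The log2 difference of CaP Zn0.8Mn0.1Li from CaP Zn was -0.064 in both fits (SE 0.22 and 0.099), and that of CaP Zn0.8Mn was 0.30 (SE 0.22) with 6 libraries and 0.094 (SE 0.12) with 5. Trem2 lies on chromosome 17 from 48346401 to 48354147, plus strand (GRCm38).

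Plin2 encodes the perilipin that coats lipid droplets in most cells and is widely used as a measure of stored lipid. Its 2 libraries per group agreed closely on CaP Zn0.8Mn0.1Li, at 90.0 and 90.9 CPM, and on CaP Zn, at 82.8 and 83.5 CPM, while CaP Zn0.8Mn gave 115 and 93.7 CPM. As for Cd36, no 2 groups overlapped and the order was CaP Zn0.8Mn, CaP Zn0.8Mn0.1Li, CaP Zn from high to low. This order without overlap, singled out after the values were seen, held for 2 of the 8 genes and for 1.06% of all tested genes. Counting any order, Nr1h3 joined them as 3 of 8, against 5.35% of tested genes. The differences were small: CaP Zn0.8Mn0.1Li lay above CaP Zn by 0.12 on the log2 scale (SE 0.18 with 6 libraries, 0.082 with 5), and CaP Zn0.8Mn by 0.33 (SE 0.18) and 0.17 (SE 0.10). Neither passed the test. Plin2 lies on chromosome 4 from 86648386 to 86670060, minus strand (GRCm38).

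Nr1h3 encodes LXR alpha, 1 of the receptors that switch on the cholesterol transporters, and its counts were the lowest. It had 17 and 16 counts on CaP Zn0.8Mn0.1Li, 81 and 26 counts on CaP Zn0.8Mn and 20 and 19 counts on CaP Zn. Counting error alone gives exact Poisson 95% intervals of 64.3 to 101 for the 81 counts, 17.0 to 38.1 for the 26 and 9.15 to 26.0 for the 16. The interval of CaP Zn0.8Mn replicate 1 thus clears the others, whereas that of replicate 2 overlaps the interval of every CaP Zn and CaP Zn0.8Mn0.1Li library. In CPM the values were 1.03 and 0.977 CPM on CaP Zn0.8Mn0.1Li, 5.34 and 1.68 CPM on CaP Zn0.8Mn and 1.07 and 1.21 CPM on CaP Zn. The log2 difference of CaP Zn0.8Mn from CaP Zn was 1.61 (SE 0.62, unadjusted p = 0.0445, adjusted p = 0.773 by edgeR) with 6 libraries and 0.55 (SE 0.50) with 5. CaP Zn0.8Mn0.1Li differed from CaP Zn by -0.19 in both fits (SE 0.64 and 0.44), which at this depth is within the error. Nr1h3 lies on chromosome 2 from 91184061 to 91202834, minus strand (GRCm38), and overlaps the low-count gene Gm13783 on the same strand, with 2 to 11 counts.

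Abca1, the transporter that loads cholesterol onto lipid-poor apolipoproteins, showed opposite positions in the CaP Zn0.8Mn libraries. It gave 11.9 and 11.7 CPM on CaP Zn0.8Mn0.1Li, 107 and 8.98 CPM on CaP Zn0.8Mn and 12.7 and 13.8 CPM on CaP Zn. CaP Zn0.8Mn thus held both the highest and the lowest of the 6 values, and CaP Zn0.8Mn0.1Li lay just below CaP Zn without overlap. The log2 difference of CaP Zn0.8Mn from CaP Zn was 2.13 (SE 1.03) with all 6 libraries and turned to -0.56 (SE 0.21) without replicate 1. In the 5-library fit, where 1 library stands for CaP Zn0.8Mn, the unadjusted p was 0.0161 and edgeR's adjusted p 0.967, and the adjusted p ran from 3.79e-10, without CaP Zn0.8Mn replicate 2, to 1.00 over the alternatives. The difference of CaP Zn0.8Mn0.1Li from CaP Zn was -0.17 in both fits (SE 1.01 and 0.16). Abca1 lies on chromosome 4 from 53030787 to 53159895, minus strand (GRCm38).

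Abcg1 passes cholesterol on to high-density lipoprotein particles. Its values were 72.9 and 59.4 CPM on CaP Zn0.8Mn0.1Li, 184 and 65.9 CPM on CaP Zn0.8Mn and 59.7 and 70.7 CPM on CaP Zn. Outside CaP Zn0.8Mn replicate 1, all values lay within the range of the CaP Zn0.8Mn0.1Li libraries. The 5-library differences from CaP Zn were 0.022 (SE 0.11) for CaP Zn0.8Mn0.1Li and 0.016 (SE 0.14) for CaP Zn0.8Mn, against 0.020 (SE 0.48) and 0.94 (SE 0.48) with 6 libraries. Abcg1 lies on chromosome 17 from 31057698 to 31115777, plus strand, as the files give it.

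Apoe encodes the apolipoprotein that carries cholesterol away from macrophages. It had 7.54 and 7.57 CPM on CaP Zn0.8Mn0.1Li, 3.50 and 7.75 CPM on CaP Zn0.8Mn and 6.93 and 8.37 CPM on CaP Zn. The 2 CaP Zn libraries spanned every value other than the low one, which rested on 53 counts, against 120 to 131 counts in the other libraries. CaP Zn0.8Mn0.1Li differed from CaP Zn by -0.014 (SE 0.20) and CaP Zn0.8Mn by 0.023 (SE 0.24) with 5 libraries, against -0.017 (SE 0.43) and -0.44 (SE 0.43) with 6. Apoe lies on chromosome 7 from 19696109 to 19699188, minus strand (GRCm38).

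No member passed the test in any comparison of alloys with all 6 libraries. CaP Zn0.8Mn0.1Li versus CaP Zn gave 0 of 8 members past an adjusted p of 0.05 in edgeR, against 0% of tested genes, and 0 of 8 with an unadjusted p under 0.05, against 0.22%. CaP Zn0.8Mn versus CaP Zn gave 0 of 8, against 0% of tested genes, and 2 of 8 with an unadjusted p under 0.05, against 1.57%. CaP Zn0.8Mn0.1Li versus CaP Zn0.8Mn gave 0 of 8, against 0%, and 1 of 8 with an unadjusted p under 0.05, against 2.4%. DESeq2 and limma-voom likewise gave 0 members in each comparison. Without CaP Zn0.8Mn replicate 1 the adjusted count was again 0 of 8 in each comparison, beside 0% of tested genes in CaP Zn0.8Mn0.1Li versus CaP Zn and 0.0152% for the other comparisons. An unadjusted p under 0.05 was then met by 1 of 8 members (Cd36) in CaP Zn0.8Mn0.1Li versus CaP Zn, against 5.02% of tested genes, and by 2 of 8 (Cd36 and Abca1) in CaP Zn0.8Mn versus CaP Zn, against 4.33%. In CaP Zn0.8Mn0.1Li versus CaP Zn0.8Mn it was met by 0 of 8, against 3.16%. Without CaP Zn0.8Mn replicate 2, so that the library that stood apart alone represented its alloy, 8 of 8 members passed in both comparisons with CaP Zn0.8Mn, as did 7808 of the 13156 tested genes (59.3%) in CaP Zn0.8Mn versus CaP Zn and 8096 (61.5%) in CaP Zn0.8Mn0.1Li versus CaP Zn0.8Mn. That fit assumes that the lone library varies like the other groups. The comparisons share libraries, so they are not independent of each other.

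Some members separated the groups without overlap. On CaP Zn0.8Mn0.1Li, Cd36 and Plin2 lay above and Abca1 and Nr1h3 below every CaP Zn library, which is 4 of 8 genes against 33.5% of tested genes in either direction, 16.7% higher and 16.8% lower. On CaP Zn0.8Mn, 3 of 8 genes, Cd36, Nr1h3 and Plin2, lay above every CaP Zn library, against 12.5% of tested genes, and 0 of 8 lay below, against 12.8%. On CaP Zn0.8Mn0.1Li, 4 of 8 genes, Cd36, Nr1h3, Plin2 and Trem2, lay below every CaP Zn0.8Mn library, against 17.5% of tested genes and 34.6% in either direction. The median log2 fold change of the 8 genes in CaP Zn0.8Mn0.1Li versus CaP Zn was 0.0015, close to 4.7e-05 over all tested genes. In CaP Zn0.8Mn versus CaP Zn the median was 0.73 with 6 libraries and 0.11 with 5, against 0.0048 and -0.0084 over all tested genes, and 7 of 8 estimates were above 0 in both fits, against 50.5% and 48.2% of tested genes. In CaP Zn0.8Mn0.1Li versus CaP Zn0.8Mn, 1 of 8 was above 0 with 6 libraries and 3 of 8 with 5, against 49.9% and 49.6%. With 6 libraries these estimates ran from -2.30 (SE 1.04) for Abca1 to 0.43 (SE 0.43) for Apoe, and Nr1h3 at -1.80 (SE 0.63) had the 1 unadjusted p under 0.05, of 0.0316, with an adjusted p of 0.680 in edgeR. With 5 libraries they ran from -0.74 (SE 0.51) for Nr1h3 to 0.39 (SE 0.21) for Abca1, so the order of Abca1 between these alloys turned on the library that stood apart.

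**Figure D4:**
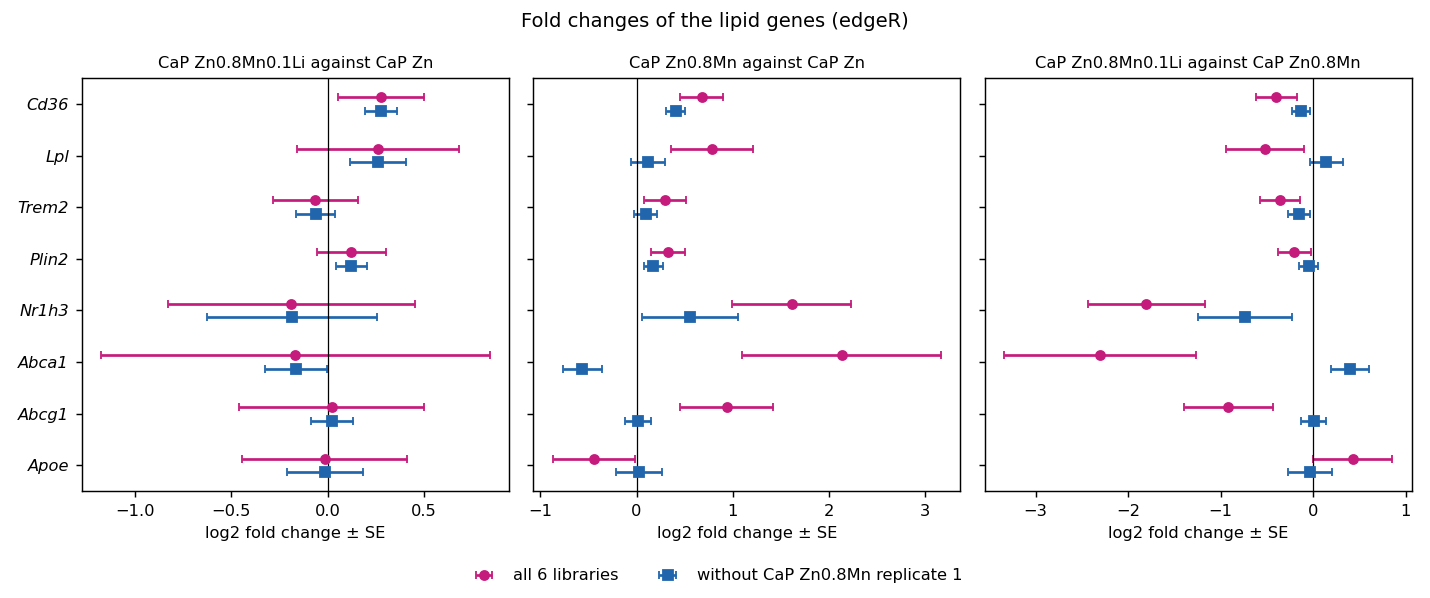
Log2 fold change with its SE for the 8 genes in the 3 comparisons of alloys, with all 6 libraries and without CaP Zn0.8Mn replicate 1. The Abca1 estimate in CaP Zn0.8Mn versus CaP Zn is 2.13 with 6 libraries and -0.56 with 5, while the Cd36 estimates keep their sign.

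The wider pathways, taken from lists written for these genes' partners, held no gene that passed the test in any comparison, with 6 or with 5 libraries. Estimates for list genes below are those of CaP Zn0.8Mn0.1Li versus CaP Zn without CaP Zn0.8Mn replicate 1, and with all 6 libraries their SEs were larger, from 0.17 for Scd1 to 0.96 for Fabp5. Of the LXR partners and targets, 15 of 19 were tested, and 4 lay above and 11 below CaP Zn on CaP Zn0.8Mn0.1Li in the 5-library fit, with a median of -0.039. Their named members were Rxrb, a partner receptor of LXR, at -0.18 (SE 0.080), and Mylip, whose product degrades the low-density lipoprotein receptor, at -0.24 (SE 0.17), with Scd1, a fatty acid desaturase, at 0.060 (SE 0.082). Of the lipid uptake list, 14 of 17 were tested, and 12 lay above and 2 below CaP Zn on CaP Zn0.8Mn0.1Li, against 50% of tested genes above. On CaP Zn0.8Mn 8 lay above and 6 below CaP Zn with 6 libraries, against 50.5% of tested genes above, and 11 above and 3 below without replicate 1, against 48.2%. Fabp5, a cytosolic fatty acid carrier, was at 371 and 371 CPM on CaP Zn0.8Mn0.1Li, at 33.5 and 369 CPM on CaP Zn0.8Mn and at 278 and 327 CPM on CaP Zn. It thus lay above CaP Zn in 3 libraries of the manganese alloys and far below the other libraries in CaP Zn0.8Mn replicate 1, with a log2 difference of -3.36, opposite to Cd36 in that library. Its 5-library difference of CaP Zn0.8Mn0.1Li from CaP Zn was 0.30 (SE 0.095, edgeR's adjusted p = 0.740), and 0.30 (SE 0.96) with 6 libraries. The fatty acid transport protein gene Slc27a4 was at -0.11 (SE 0.16) and the scavenger receptor gene Stab1 at 0.23 (SE 0.14) in that fit.

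Droplet storage and lipolysis was divided, with 13 of 19 tested and 7 above and 6 below CaP Zn on CaP Zn0.8Mn0.1Li. Abhd5, the co-activator of adipose triglyceride lipase, lay at 0.18 (SE 0.098) and Hilpda, an inhibitor of that lipase, at -0.15 (SE 0.14). Soat2, a cholesterol-esterifying enzyme, was at -0.26 (SE 0.24). Of the genes of cholesterol egress and oxysterols, 10 of 11 were tested, with 5 above and 5 below. Cyp27a1, which makes the LXR ligand 27-hydroxycholesterol, stood at 30.1 and 30.1 CPM on CaP Zn0.8Mn0.1Li, at 28.4 and 28.5 CPM on CaP Zn0.8Mn and at 25.3 and 24.6 CPM on CaP Zn, with no overlap between alloys. Npc1, which moves cholesterol out of lysosomes, gave 66.3 and 67.1 CPM on CaP Zn0.8Mn0.1Li, 123 and 64.6 CPM on CaP Zn0.8Mn and 72.6 and 72.0 CPM on CaP Zn, the same arrangement as Abca1. Lipa, the lysosomal lipase that frees cholesterol from its esters, was at -0.15 (SE 0.090) in that comparison.

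Spp1, which encodes the secreted protein osteopontin and stood in the list of TREM2 signalling and lipid-associated macrophage genes, reached 12639 and 14889 CPM on CaP Zn0.8Mn0.1Li, 2341 and 13760 CPM on CaP Zn0.8Mn and 9139 and 9739.8 CPM on CaP Zn. Like Cd36 it lay above CaP Zn on CaP Zn0.8Mn0.1Li, by 0.54 (SE 0.20, edgeR's adjusted p = 0.943) with 5 libraries and 0.54 (SE 0.78) with 6, but in CaP Zn0.8Mn replicate 1 it was the lowest. Of 15 tested genes of that list, 9 lay above and 6 below CaP Zn on CaP Zn0.8Mn0.1Li. Of 21 cholesterol synthesis genes 16 lay above and 5 below, among them Fdps at 0.21 (SE 0.16), Cyp51 at 0.18 (SE 0.084) and Ebp at 0.15 (SE 0.13).

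In CaP Zn0.8Mn replicate 1 the genes around the members did not all lie on the same side. Among LXR partners and targets 10 of 15 lay above and 3 below all other libraries, with a median log2 difference of 0.18. Genes of cholesterol synthesis, whose transcription SREBP2 drives, were placed the other way: 2 of 21 lay above and 19 below all other libraries, with a median of -0.50. Among TREM2 signalling and lipid-associated macrophage genes, 8 of 15 lay above and 5 below. Of these, Clec7a, a receptor for fungal glucans, differed by 3.84 on the log2 scale, Itgax by 2.13 and Gpnmb by 1.57, while Tyrobp, the adaptor through which TREM2 signals, was at -1.02, opposite to Trem2 itself at 0.48. Against these counts stand 42% of tested genes above and 41.9% below, and no list was tested.

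**Figure D5:**
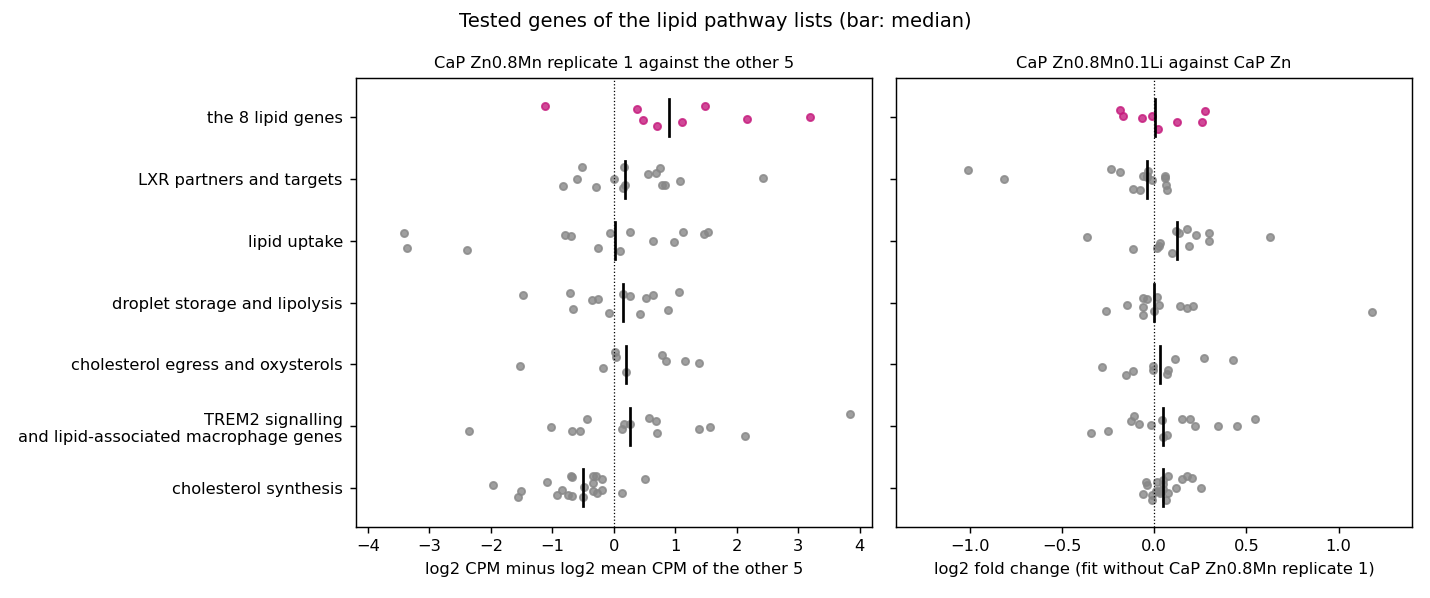
Log2 differences of the tested genes of 6 lists, 1 point per gene, for CaP Zn0.8Mn replicate 1 against the mean of the 5 other libraries on the left and in CaP Zn0.8Mn0.1Li versus CaP Zn without that library on the right. Abcg4, at 0 counts in that library, is not drawn on the left; the cholesterol synthesis points lie mostly below 0 on the left, with a median of -0.50.

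Abca1 varied most of the 8 genes, over 3.51 log2 units across 6 libraries and 0.59 across the 5. The genes whose levels followed it most closely over 6 libraries were Tgfbr1, a receptor for transforming growth factor beta, with Pearson's r of 0.9999, Cnot6l with 0.9995 and Msi2 with 0.9991. These values rest on 1 library, CaP Zn0.8Mn replicate 1, where Abca1 was at 107 CPM, against at most 13.8 CPM in the others. Of 9764 genes compared, 250 (2.56%) had r above 0.99. Over the 5 other libraries the closest were Tgfbr1 with 0.995, Tmem167 with 0.994 and Mdm1 with 0.993, and 5 of the 9764 genes (0.0512%) had r above 0.99. Tgfbr1 was nearest in both searches, which share those 5 libraries. Tgfbr1 was at 25.3 and 25.5 CPM on CaP Zn0.8Mn0.1Li, 65.1 and 22.7 CPM on CaP Zn0.8Mn and 25.9 and 27.1 CPM on CaP Zn. All points share their libraries, and no p is given.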

How the data were processed

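Polyadenylated RNA of RAW264.7 cells was sequenced in 6 libraries, 2 per alloy, grouped by the treatment label. The authors deposited whole-number counts per gene without normalization, and FPKM values, which scale those counts to gene length and to a library size of 0.976 to 1.06 times the count total. The sources used here name neither aligner nor counter. The submitters' processing notes name the build mm9, whereas the deposited positions of 7 of the 8 genes equal those of GRCm38 in GENCODE M21, so coordinates are given as the files have them. The tables hold 0 columns of other samples.

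Counts were tested with edgeR 4.0.16 in R 4.3.3 (robust quasi-likelihood, TMM, filterByExpr, group means, 3 residual degrees of freedom, 2 without CaP Zn0.8Mn replicate 1), two-sided, with Benjamini-Hochberg adjustment over 13156 genes and a threshold of 0.05. SEs are the absolute log2 fold change over the square root of F. CPM carry TMM factors of 0.973 to 1.05. The scripts were tested on simulated data with a common spread for all genes, taken from the libraries other than CaP Zn0.8Mn replicate 1. The divergence of that library was not simulated. Libraries of 1 alloy were not duplicates: their counts gave chi-square values per gene of 6.17 (CaP Zn0.8Mn0.1Li), 283 (CaP Zn0.8Mn) and 11.7 (CaP Zn).

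The members and lists were chosen with earlier results of these data known. The genes named are the 8 members, the 3 genes nearest by Pearson's r to the member of widest range among genes of at least 5 CPM, and in each pathway list the genes that passed or, with none, the 3 of at least 5 CPM with the largest 5-library change against CaP Zn. Tyrobp, Gpnmb, Abcg4 and Nr1h2 were picked out after their values were seen, as were the cell type markers named singly. Alternatives were RLE factors, library totals only, DESeq2 1.42.0, limma-voom (limma 3.58.1), other filters, limma on log2 FPKM with a pseudocount of 1 or 0.1 where the mean FPKM reached 1, a block for the replicate number, a fit to the compared libraries alone and each library left out. DESeq2 without CaP Zn0.8Mn replicate 1 was added after the data were seen.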

Additional observations from a re-analysis of the deposited data

How the results depend on the processing

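No setting gave a member past the threshold other than leaving out CaP Zn0.8Mn replicate 2. Leaving out each library in turn, the genes past the threshold numbered 0 to 0 in CaP Zn0.8Mn0.1Li versus CaP Zn, 0 to 7808 in CaP Zn0.8Mn versus CaP Zn and 0 to 8096 in CaP Zn0.8Mn0.1Li versus CaP Zn0.8Mn, and the members from 0 to 0, 0 to 8 and 0 to 8. Log2 fold changes that changed sign over these fits ran, in CaP Zn0.8Mn0.1Li versus CaP Zn, from -0.14 to 0.16 for Abcg1, -0.15 to 0.12 for Apoe and -0.19 to 0.076 for Trem2. In CaP Zn0.8Mn versus CaP Zn they ran from -0.56 to 3.01 for Abca1 and -1.13 to 0.023 for Apoe. In CaP Zn0.8Mn0.1Li versus CaP Zn0.8Mn they ran from -3.19 to 0.39 for Abca1, -1.48 to 0.0056 for Abcg1, -0.036 to 1.11 for Apoe and -0.98 to 0.14 for Lpl. Cd36 kept its sign in every fit, from 0.22 to 0.33 in CaP Zn0.8Mn0.1Li versus CaP Zn and from 0.41 to 0.89 in CaP Zn0.8Mn versus CaP Zn. Of the results of the other settings, 249 of 258 kept direction and side of the threshold.

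DESeq2 gave 1 gene in CaP Zn0.8Mn versus CaP Zn and 3 in CaP Zn0.8Mn0.1Li versus CaP Zn0.8Mn, and no filter gave 1 and 1. DESeq2 without CaP Zn0.8Mn replicate 1 gave 12 genes in CaP Zn0.8Mn0.1Li versus CaP Zn, 5 in CaP Zn0.8Mn versus CaP Zn and 3 in CaP Zn0.8Mn0.1Li versus CaP Zn0.8Mn. In it Abca1 was at -0.56 and Apoe at 0.023 in CaP Zn0.8Mn versus CaP Zn, and Abca1 at 0.39, Abcg1 at 0.0048, Apoe at -0.037 and Lpl at 0.14 in CaP Zn0.8Mn0.1Li versus CaP Zn0.8Mn. With library totals only, Abcg1 was at -0.021 in CaP Zn0.8Mn0.1Li versus CaP Zn. All leave-one-out fits hold 5 libraries, and which one was left out set these counts: in CaP Zn0.8Mn versus CaP Zn 2 genes passed without CaP Zn0.8Mn replicate 1 and 7808 without replicate 2. The cause of the other changes was not tested. Nr1h3 has no value on the FPKM scale, its mean of 0.739 being under the minimum.

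Over genes, the difference between replicates 1 and 2 correlated at 0.29 between CaP Zn and CaP Zn0.8Mn. The value was -0.19 between CaP Zn and CaP Zn0.8Mn0.1Li and -0.098 between CaP Zn0.8Mn and CaP Zn0.8Mn0.1Li. The library that stood apart enters each value with CaP Zn0.8Mn, so the correlations cannot tell whether the numbers pair the samples. With the replicate number as a block, 0 genes passed in each comparison, and in CaP Zn0.8Mn0.1Li versus CaP Zn Abcg1 was at -0.026 and Apoe at 0.0019. With 2 libraries per group and 3 residual degrees of freedom, differences such as those of Cd36 and Plin2 did not pass adjustment over 13156 genes.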
